A study of Mus musculus with 4 samples.

Results

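The mitochondrial respiratory chain is built largely from subunits that nuclear genes encode, and 81 of these genes, of 19938 genes with a probe set of their own, were followed on 4 Affymetrix Mouse Gene ST arrays. A gene was counted where its symbol in the array annotation begins with *Nduf* followed by a, b, c, s or v and a number, with *Uqcr*, with *Cox* and a number from 4 to 8, or with *Atp5*, or is *Sdha*, *Sdhb*, *Sdhc* or *Sdhd*. Pseudogene symbols and probe sets that carry several symbols were left out, and a gene with several probe sets was represented by the one with the highest mean. The rule used no measured difference between treatments. By symbol, 35 genes fell to complex I, 4 to complex II, 8 to complex III, 17 to complex IV and 17 to complex V. *Ndufa4* is known as a subunit of complex IV but stayed with complex I, where its symbol places it. *Ndufb1*, *Ndufb4* and *Cox7c* are not analysed here.

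The cells were ILC87-Ik1-ER, a mouse T-cell line that came from a thymic tumour of an Ikaros f/f Lck-cre+ animal, in which *Lck*-driven Cre deletes the Ikaros gene in the T lineage. The labels give its strain as C57BL/6, whereas the methods of the study place Lck-Cre animals of this kind on a mixed background, C57Bl/6 in part. All cells carried the MigR1 retrovirus for Ik1-ER, the full-length Ikaros-1 protein fused with the hormone-binding portion of the oestrogen receptor, together with a GFP reporter by which they were sorted. Of the 4 arrays, 2 measured RNA of cells given 100 nM 4-hydroxytamoxifen (4OHT), the ligand that brings Ik1-ER into the nucleus, for 24 h, and 2 that of cells given the ethanol vehicle (EtOH) for 24 h. The comparison asks what Ikaros activity does to expression in Ikaros-null tumour cells. It rests on a single tumour line, and no array measured 4OHT on cells without Ik1-ER, so effects of the ligand and of Ikaros cannot be told apart. The labels do not say that the samples came from separate cultures, so the p-values cover only the variation among these 4 arrays, and part of it may be technical.

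Complex I, the NADH dehydrogenase, and complex II, succinate dehydrogenase, pass electrons to ubiquinone. Complex III carries them on to cytochrome c, and complex IV, cytochrome c oxidase, hands them to oxygen. Complexes I, III and IV pump protons across the inner membrane as they do so, and complex V, the ATP synthase, uses the gradient to make ATP. Complex II also belongs to the tricarboxylic acid cycle. Most nuclear subunits exist in a single form that every tissue uses. Several small subunits of complex IV, which surround its mitochondrially encoded core, have a second form that is known from particular tissues such as heart and skeletal muscle, lung or testis.

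The promoters of the broadly used subunits are known for sites of nuclear respiratory factor 1 (NRF1) and of ETS factors such as the GA-binding protein. In the RefSeq windows of 300 bases around the annotated start (250 before and 50 after, build GRCm38.p6), which 66 of the 81 genes had, the NRF1 core CGCANGCG, read on both strands, occurred in 23, or 34.8%, against 8.42% of the 27025 windows of all genes. The ETS motif CCGGAAG occurred in 16 windows (24.2% against 9.12%), and the YY1 motif AAGATGGC in 9 (13.6% against 2.88%). The TGGGAA motif, which Ikaros is known to bind, occurred in 13 (19.7% against 25.5%). None of the motifs contains another, and a match describes letters and not a bound site. The study, however, took motifs with GGAA as those of Ikaros. Both TGGGAA and the ETS motif hold these letters, and GGAA alone was not counted here. The median window held 19 CpG dinucleotides, against 7 over all genes. The NRF1 core and the ETS motif hold CpG themselves, and the windows of all genes were not matched for CpG content. How far the motif shares follow from CpG content was not tested. As picked examples, the 250 bases upstream of the start are given for 3 genes of subunits 6a and 6b of complex IV. They are printed 5′ to 3′ on the coding strand with motif matches in capitals. *Cox6a1* and *Cox6b1* encode the broad forms and *Cox6b2* the form known from testis. They lie at chr5:115348959-115349208, chr7:30626115-30626364 and chr7:4753095-4753344, all on the minus strand.
Cox6a1: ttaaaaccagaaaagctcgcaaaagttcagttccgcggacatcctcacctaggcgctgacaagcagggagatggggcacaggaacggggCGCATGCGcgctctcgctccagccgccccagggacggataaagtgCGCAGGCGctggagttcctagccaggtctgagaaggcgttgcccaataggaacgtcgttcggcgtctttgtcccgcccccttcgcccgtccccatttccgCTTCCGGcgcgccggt
Cox6b1: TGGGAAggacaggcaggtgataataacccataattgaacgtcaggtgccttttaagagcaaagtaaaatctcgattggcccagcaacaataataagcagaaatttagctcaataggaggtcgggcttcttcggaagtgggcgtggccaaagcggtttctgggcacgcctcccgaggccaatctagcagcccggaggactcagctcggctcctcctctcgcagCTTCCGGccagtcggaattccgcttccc
Cox6b2: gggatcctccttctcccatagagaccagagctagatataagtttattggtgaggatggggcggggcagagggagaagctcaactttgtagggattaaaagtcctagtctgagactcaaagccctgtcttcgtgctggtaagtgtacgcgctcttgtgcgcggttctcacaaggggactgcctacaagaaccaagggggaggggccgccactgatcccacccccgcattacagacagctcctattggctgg
In *Cox6a1* the capitals mark the NRF1 core at -161 and at -116 and the ETS motif at -16, counted from the start to the first base of the match. In *Cox6b1* they mark the Ikaros motif at -250 and the ETS motif at -28. The *Cox6b2* window held none of the 4 motifs and 10 CpG, against 32 and 17 in the other two. Of the 8 restricted forms described below, the 4 with a window (*Cox6b2*, *Cox7a1*, *Cox7b2* and *Cox8b*) held none of the motifs, and between 2 and 10 CpG. The other 4, with *Cox6a2* and *Cox4i2* among them, were not read. Broad forms could lack the motifs too: the windows of *Cox5a*, *Cox5b*, *Cox7a2* and *Cox7a2l* held none of the 4. The 62 windows of members outside the restricted forms held between 5 and 43 CpG. The printed examples are thus not typical of every broad form.

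The 4 arrays had medians between 7.11 and 7.16 on the log2 scale of the deposited values, and arrays of the same treatment correlated more closely (r = 0.994 and 0.996 over all probe sets) than arrays of different treatments (0.989 to 0.990). The labelled cell type was checked against marker genes. Of the 12 T-cell markers 10 were measured, and their EtOH means ran from 9.89 to 13.29, whereas all 6 measured B-cell markers (4.72 to 6.69), all 6 myeloid markers (5.86 to 6.80) and both measured erythroid markers (6.33 to 6.81) lay below the medians of the arrays. The 5 stromal and epithelial markers lay between 5.91 and 7.90. Of all these markers, *Cd3d* and *Lyz2* were lower and *Itgam* higher with 4OHT (limma, adjusted p under 0.05). Signals of different probe sets depend on their probes, so these marker levels are only a rough check. Changes are read between arrays, and the same limit holds where genes are called bright or dim below.

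Of the 81 subunit genes, 1 rose and 1 fell with 4OHT at an adjusted p under 0.05, and both encode restricted subunits of complex IV. *Cox6a2*, the heart and skeletal muscle form of subunit 6a, rose 2.70-fold, and *Cox4i2*, the form of subunit 4 known from lung, fell 1.64-fold. The other 79 did not pass the test. Over all 19938 genes the same test called 1.23% higher and 2.99% lower, so neither count sets the members apart from the background. At an unadjusted p under 0.05 there were 8 members, against 20.4% of all genes, and 3 had an adjusted p under 0.1, against 7.91% (limma). The 95% interval of the log2 fold change lay within ±0.5 for 67 members and within ±1 for all but *Cox6a2*, and the estimate itself was under 0.2 in size for 71.

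**Figure D1:**
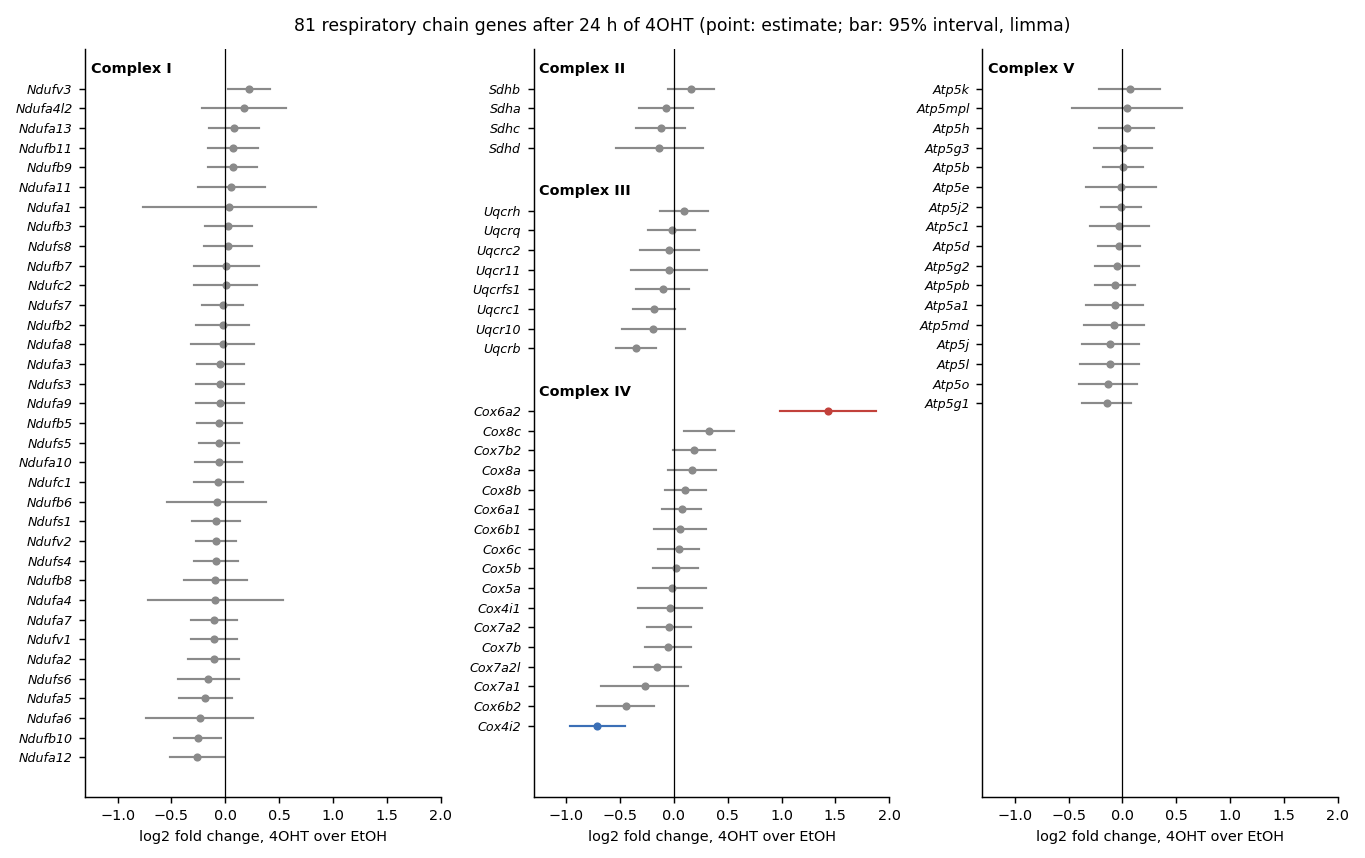
Log2 fold change of 4OHT over EtOH for the 81 genes, sorted within each complex; points are limma estimates from 2 arrays per treatment and bars are 95% intervals. *Cox6a2* (red, 1.43) and *Cox4i2* (blue, -0.71), the members that passed the test, stand at the ends of complex IV, and 71 of the 81 estimates lie within 0.2 of 0.

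The small values leaned downwards. The median log2 fold change was -0.05 over the members and 0.03 over all genes, and 54 members (66.7%) had a negative value against 42.3% of all genes. Bright genes as a whole leaned the same way: among the 3373 genes with a mean signal of at least 10, the median was -0.03 and 58.8% were negative. After the arrays were quantile-normalized again the median was -0.01 over the members and 0.02 over all genes. With equal array medians it was -0.07 over the members and 0.01 over all genes. Both 4OHT arrays lay below both EtOH arrays for 18 members (22.2%), against 24.5% of all genes, and above them for 10 (12.3%), against 32.1%. The arrays of the treatments overlapped for the other 53. Among the genes with a mean signal of at least 10, both 4OHT arrays lay below in 36.8% and above in 24.3%. By complex, the medians were -0.05 for complex I, -0.10 for complex II, -0.07 for complex III, 0.02 for complex IV and -0.03 for complex V.

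This lean came with a difference between the 4OHT arrays. 4OHT replicate 1 read lower than replicate 2 for 66 members (81.5%) against 58.6% of all genes, by a median of -0.12 on the log2 scale against -0.03. In the EtOH arrays the corresponding median difference was -0.02 for the members and 0.01 for all genes. Set against each gene's own mean over the 4 arrays, the members' median was -0.09 on 4OHT replicate 1, 0.04 on 4OHT replicate 2, 0.01 on EtOH replicate 1 and 0.04 on EtOH replicate 2. Without 4OHT replicate 1 the median log2 fold change was 0.01 over the members and 0.04 over all genes. Without 4OHT replicate 2 it was -0.10 over the members and 0.01 over all genes. The part of this array in the lean was otherwise not tested.

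**Figure D2:**
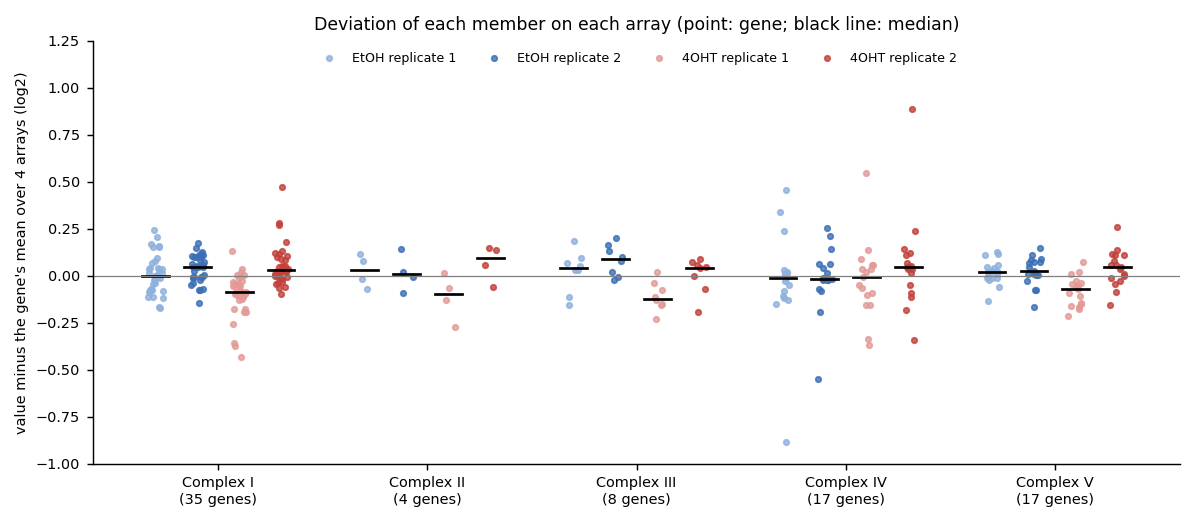
Log2 value on each array minus the gene's mean over the 4 arrays, by complex; points are genes and black lines medians. The median of 4OHT replicate 1 is the lowest of the 4 in complexes I, II, III and V (-0.09 in complex I). Within complex IV the widest points belong to *Cox6a2* and *Cox4i2*.

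Both called genes belonged to complex IV. *Cox6a2* read 9.14 and 9.47 on the EtOH arrays and 10.57 and 10.91 on the 4OHT arrays. Both treated arrays were thus more than 1 log2 unit above the higher vehicle array. The log2 fold change was 1.43 ± 0.17 (SE, n = 2 arrays per treatment; 95% interval 0.99 to 1.88; adjusted p = 0.031, limma). The broad form of the same subunit, *Cox6a1*, read 12.04 and 12.06 with EtOH and 12.12 and 12.12 with 4OHT. Its log2 fold change was 0.07, with an interval of -0.11 to 0.26. Subunit 6a sits at the edge of the oxidase where it forms dimers, and its muscle and broad forms are used in different tissues.

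*Cox4i2* read 8.47 and 8.26 with EtOH and 7.64 and 7.67 with 4OHT. The treated arrays were close to each other and below both vehicle arrays. The log2 fold change was -0.71 ± 0.10 (SE, n = 2; interval -0.97 to -0.45; adjusted p = 0.041, limma). *Cox4i1*, the broad form of subunit 4, read 11.17 and 11.17 with EtOH and 11.00 and 11.27 with 4OHT, so its 4OHT arrays lay on either side of the EtOH values (log2 fold change -0.03, interval -0.33 to 0.27). Subunit 4 is known to take part in the regulation of the oxidase by ATP.

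Neither call was kept in every fit. A fit with 1 array left out has only 1 array in a treatment and can detect less, so a call lost there does not point to a particular array. With any 1 array left out the log2 fold change of *Cox6a2* stayed between 1.26 and 1.60 and that of *Cox4i2* between -0.81 and -0.61. The adjusted p of *Cox6a2* was 0.049 without 4OHT replicate 1, 0.085 without 4OHT replicate 2, 0.166 without EtOH replicate 1 and 0.149 without EtOH replicate 2, and that of *Cox4i2* ran from 0.116 to 0.177 (limma). No gene of the 19938 passed when either EtOH array was left out. With the sample number as a replicate block, the adjusted p was 0.052 for *Cox6a2* and 0.108 for *Cox4i2*, and 30 of the 19938 genes passed. After quantile normalization *Cox4i2* had an adjusted p of 0.052.

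The other restricted forms gave smaller values, none of which passed the test. *Cox6b2* read 7.33 and 7.30 with EtOH and 6.75 and 6.98 with 4OHT (log2 fold change -0.45, adjusted p = 0.110, limma), whereas its broad counterpart *Cox6b1* read 12.19 and 12.37 against 12.33 and 12.35. Subunit 6b faces the intermembrane space, near the site of cytochrome c. *Cox8c*, known from testis, read 7.12 and 7.06 with EtOH and 7.34 and 7.49 with 4OHT (0.32, adjusted p = 0.152, limma). The broad *Cox8a* read 12.11 and 12.24 against 12.32 and 12.37 (0.17), and the muscle form *Cox8b* 6.42 and 6.48 against 6.56 and 6.55 (0.11). All 3 genes of subunit 8 thus had both 4OHT arrays above both EtOH arrays, as did 32.1% of all genes, and none passed the test, with adjusted p-values from 0.152 to 0.498 (limma).

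*Cox7a1*, the heart and skeletal muscle form of subunit 7a, read 8.07 and 7.66 with EtOH and 7.65 and 7.56 with 4OHT (-0.27, adjusted p = 0.426, limma). The EtOH arrays differed from each other by more than the means of the treatments did. The broad *Cox7a2* had a log2 fold change of -0.05, and *Cox7a2l*, whose product is known to join complexes III and IV into supercomplexes, of -0.16. *Cox7b2*, a testis form, was the dimmest probe set of the members, at 4.69 and 4.72 with EtOH and 4.94 and 4.85 with 4OHT (0.19, adjusted p = 0.295, limma). This lay far under the medians of the arrays and was not shown to stand above background. *Ndufa4l2*, which is known as a hypoxia-induced relative of *Ndufa4*, read 6.56 and 6.72 against 6.63 and 6.99, with overlapping arrays.

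Set together, these 8 restricted forms ranged from -0.71 to 1.43 in log2 fold change, and the arrays of the treatments overlapped for 1 of them, *Ndufa4l2*. Over all genes they overlapped for 43.4%. The set was drawn after the values had been seen, and carries no test. It rests on what is known of their tissues, or for *Ndufa4l2* of its induction by hypoxia. *Cox7b2*, *Cox8b* and *Ndufa4l2* read below the array medians on all 4 arrays. *Cox6b2* did so on the 4OHT arrays and *Cox8c* on EtOH replicate 2. None of these was shown to stand above background. The other 73 members ranged from -0.35 (*Uqcrb*) to 0.22 (*Ndufv3*), and for 52 of them the arrays overlapped. None of the 73 passed the test, and 4 had an unadjusted p under 0.05, against 20.4% of all genes (limma). For 65 of the 73 the interval lay within ±0.5. The mean signals of the 8 ran from 4.80 to 10.03 and those of the 73 from 8.29 to 13.41.

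**Figure D3:**
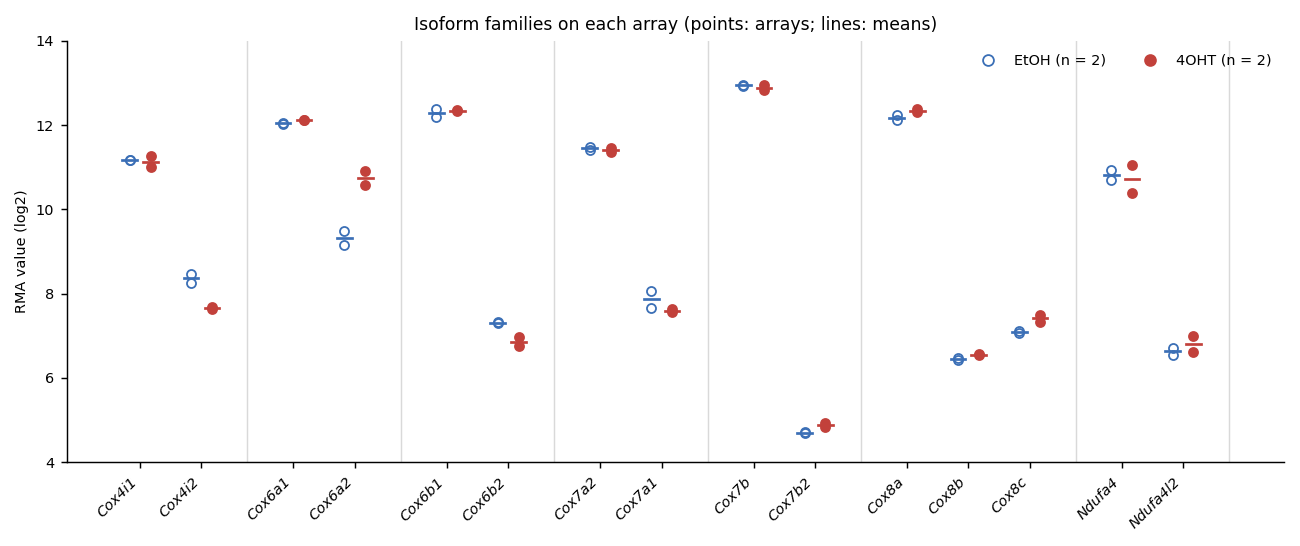
RMA value (log2) of broad and restricted forms on each array, grouped by subunit; open blue points are EtOH, filled red points 4OHT (n = 2 each), and lines are means. *Cox6a2* moves up from 9.14 and 9.47 to 10.57 and 10.91 and *Cox4i2* down from 8.47 and 8.26 to 7.64 and 7.67, beside broad forms that shift by less than 0.2; heights of different genes are not comparable.

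The 10 broad genes of complex IV had a median log2 fold change of 0.00 and ranged from -0.16 (*Cox7a2l*) to 0.17 (*Cox8a*). *Cox6c*, the brightest member of the complex, read 13.22 and 13.23 with EtOH and 13.24 and 13.30 with 4OHT. *Cox5a* and *Cox5b*, which code for subunits on the matrix side, had log2 fold changes of -0.02 and 0.02, and *Cox7b* of -0.06.

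The genomic neighbours of the called genes, in RefSeq order, were read for signal that the genes might share. *Bcl2l1*, which codes for the survival protein Bcl-xL and whose annotated body overlaps that of *Cox4i2*, read 8.47 and 8.66 with EtOH and 9.30 and 9.46 with 4OHT. It thus rose (log2 fold change 0.81, adjusted p = 0.036, limma) where *Cox4i2* fell. On the other side, *Id1*, an inhibitor of basic helix-loop-helix factors, had a value of -0.26 (adjusted p = 0.316, limma). Beside *Cox6a2* lie the genes of 3 integrin alpha chains. *Itgad*, whose body overlaps the end of *Cox6a2*, differed by 0.15 on the log2 scale (adjusted p = 0.600, limma) and *Itgax* of -0.05. *Itgam*, the third, read 6.62 and 6.56 with EtOH and 7.26 and 7.28 with 4OHT and rose (0.68, adjusted p = 0.024, limma). On the far side *9130023H24Rik* and *Armc5* had values of 0.06 and -0.23.

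In complex I none of the 35 genes passed the test (limma). An unadjusted p under 0.05 was reached by 3, against 20.4% of all genes (limma). These 3 were *Ndufa12* and *Ndufb10*, accessory subunits, and *Ndufv3*, an accessory subunit of the NADH-oxidising arm. *Ndufa12* read 10.69 and 10.53 with EtOH and 10.29 and 10.42 with 4OHT (-0.26, adjusted p = 0.256, limma). *Ndufb10* read 8.87 and 8.81 against 8.52 and 8.65 (-0.25, adjusted p = 0.216, limma). *Ndufv3* gave the highest value of the complex, with 9.98 and 9.91 against 10.18 and 10.14 (0.22, adjusted p = 0.233, limma). It was the only gene of the complex with both 4OHT arrays above both EtOH arrays, and 8 had both below, against 32.1% and 24.5% of all genes. Among genes with a mean signal of at least 10 these shares were 24.3% and 36.8%.

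The core subunits of complex I, which hold the flavin and the iron-sulphur clusters, stayed close to 0. *Ndufv1*, which codes for the subunit that binds NADH, read 11.03 and 11.05 with EtOH and 10.87 and 10.99 with 4OHT (-0.11, interval -0.32 to 0.10). *Ndufv2*, next to it in the electron path, read 12.35 and 12.41 against 12.30 and 12.30 (-0.09, interval -0.27 to 0.10). *Ndufs1*, which carries several of the clusters, had a log2 fold change of -0.09 and *Ndufs3* of -0.05. *Ndufs7* and *Ndufs8*, which lead to the ubiquinone site, had values of -0.02 and 0.03. All 6 intervals lay between -0.32 and 0.25. The brightest probe set of the complex, that of *Ndufc2*, read 13.11 and 13.03 against 12.95 and 13.20.

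The widest spreads also lay in complex I. *Ndufa1*, an X-linked accessory subunit gene, read 8.98 and 8.86 with EtOH but 8.50 and 9.41 with 4OHT, a difference of -0.91 between the treated arrays. *Ndufa4* read 10.93 and 10.69 with EtOH and 10.39 and 11.05 with 4OHT (-0.66 between the treated arrays). *Ndufa6* and *Ndufb6*, accessory subunits, differed by -0.48 and -0.43 between the treated arrays. For *Ndufa1* and *Ndufa4* the 95% intervals of the treatment difference ran from -0.77 to 0.84 and from -0.72 to 0.54, so changes of that size were not detectable for them. The remaining genes of the complex that are not named in these paragraphs lay between the values given.

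In complex II, whose subunits are all nuclear, none of the 4 genes passed the test, nor had any an unadjusted p under 0.05 (limma). *Sdha*, for the flavoprotein that oxidises succinate, read 11.81 and 11.72 with EtOH and 11.60 and 11.79 with 4OHT (-0.07). *Sdhb*, for the iron-sulphur subunit, read 10.81 and 10.79 against 10.90 and 11.03 (0.16, adjusted p = 0.378, limma), with both treated arrays above. The membrane anchors had values of -0.12 (*Sdhc*, 11.13 and 11.29 against 11.09 and 11.09) and -0.13 (*Sdhd*, 11.27 and 11.17 against 10.88 and 11.29). The treated arrays of *Sdhd* lay on either side of both vehicle arrays.

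In complex III 7 of the 8 genes had a negative value. Negative values made up 42.3% of all genes and 58.8% of those with a mean signal of at least 10. None passed the test, and 1 had an unadjusted p under 0.05, against 20.4% of all genes (limma). That gene was *Uqcrb*, for a small subunit near the ubiquinone site, which read 12.41 and 12.39 with EtOH and 12.07 and 12.04 with 4OHT. The gap between the treatments was wider than the gap within either of them (log2 fold change -0.35 ± 0.07 SE, 1.27-fold lower, adjusted p = 0.089, limma). It had 3 probe sets, with log2 fold changes from -0.39 to -0.34. *Uqcrc1*, for a large core subunit, read 11.65 and 11.73 against 11.49 and 11.53 (-0.18, adjusted p = 0.299, limma), and its partner *Uqcrc2* had a value of -0.04. *Uqcrfs1*, for the Rieske iron-sulphur protein, read 9.46 and 9.50 against 9.28 and 9.47 (-0.11). *Uqcrh*, the hinge protein gene, was the exception in sign, with 11.68 and 11.81 against 11.81 and 11.86 (0.09). *Cyc1*, the cytochrome c1 gene of this complex, and *Ndufab1*, the acyl carrier protein gene of complex I, have symbols outside the rule and each had a log2 fold change of -0.15.

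Complex V showed the narrowest range, from -0.15 (*Atp5g1*) to 0.07 (*Atp5k*), and none of its 17 genes passed the test or had an unadjusted p under 0.05 (limma). The catalytic head was near 0: *Atp5b*, for the beta subunit that makes ATP, read 13.32 and 13.34 with EtOH and 13.35 and 13.32 with 4OHT. Its log2 fold change was 0.01, with an interval of -0.18 to 0.19. *Atp5a1*, for the alpha subunit, had a value of -0.07 and *Atp5c1*, for the gamma subunit of the rotor stalk, of -0.03. The brightest member of all was *Atp5d*, for the delta subunit, at 13.40 and 13.46 against 13.42 and 13.37.

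The 3 genes for subunit c, which form the proton-driven ring and yield the same mature protein, differed little. *Atp5g1* read 12.73 and 12.88 against 12.67 and 12.64 (-0.15, adjusted p = 0.430, limma), *Atp5g2* had a value of -0.05 and *Atp5g3* of 0.01. *Atp5o*, for the subunit of the stator that confers sensitivity to oligomycin, had a value of -0.14. *Atp5mpl*, for a small membrane subunit, read 10.64 and 10.35 with EtOH and 10.30 and 10.77 with 4OHT, the widest spread of the complex. *Atp5k*, for the small subunit e, was the dimmest gene of the complex, at 9.22 and 9.42 against 9.31 and 9.47.

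Where the annotation gave several probe sets for a gene, these gave similar values. The 16 genes concerned had 40 probe sets, the log2 fold changes of which spanned at most 0.12 within a gene (*Ndufb11*), and for 4 genes they had both signs.

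Genes that build and supply the chain were read from 6 further lists, which were also drawn up with earlier results of these data known. Of 46 assembly factors, 41 were measured, and 1 fell and none rose, against 2.99% lower and 1.23% higher over all genes (limma). An unadjusted p under 0.05 was reached by 11, against 20.4% of all genes. *Bcs1l*, whose product inserts the Rieske protein into complex III, read 9.89 and 9.92 with EtOH and 9.37 and 9.44 with 4OHT (-0.50, adjusted p = 0.046, limma). Its substrate's gene, *Uqcrfs1*, had a value of -0.11. The list had a median of -0.11 and ran up to 0.26 (*Tmem126b*, for a factor of complex I assembly). Of its 41 values 32 were negative, against 42.3% of all genes. Here too 4OHT replicate 1 read below replicate 2 for 34 genes, against 58.6% of all genes.

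None of the 14 measured genes for cytochrome c and ubiquinone synthesis passed the test (limma). An unadjusted p under 0.05 was reached by 7, against 20.4% of all genes. Their median was -0.15. *Coq2*, for the enzyme that attaches the side chain of ubiquinone, read 9.86 and 9.83 against 9.33 and 9.52 (-0.42, adjusted p = 0.102, limma). *Cycs*, the somatic cytochrome c gene, had a value of -0.06.

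Of the 12 measured genes of the tricarboxylic acid cycle, the succinate dehydrogenase genes not counted, 1 fell, against 2.99% of all genes (limma). An unadjusted p under 0.05 was reached by 2, against 20.4% of all genes (limma). Of the values 11 were negative, against 42.3% of all genes and 58.8% of those with a mean signal of at least 10. *Suclg2*, for the GTP-forming beta subunit of succinyl-CoA ligase, read 10.57 and 10.44 with EtOH and 9.80 and 9.88 with 4OHT (-0.67, 1.59-fold lower, adjusted p = 0.035, limma). *Sucla2*, for the ATP-forming beta subunit, had a value of -0.01, and *Suclg1*, for the alpha subunit they share, of -0.14. *Fh1*, the fumarase gene, read 11.33 and 11.22 against 10.55 and 10.82 (-0.59, adjusted p = 0.087, limma). Both enzymes act next to complex II in the cycle, and the list had a median of -0.11.

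Among 10 genes for mitochondrial DNA transcription and replication, 1 fell, against 2.99% of all genes (limma), and the median was -0.22. An unadjusted p under 0.05 was reached by 5, against 20.4% of all genes (limma), and 8 values were negative, against 42.3%. *Tefm*, for the mitochondrial transcription elongation factor, read 8.58 and 8.53 with EtOH and 7.96 and 8.005 with 4OHT (-0.57, 1.49-fold lower, adjusted p = 0.035, limma). *Polrmt*, for the polymerase itself, and *Tfam*, for the factor that packages mitochondrial DNA, both had values of -0.04. *Polg*, for the catalytic subunit of the replicative polymerase, had the highest value of the list, at 8.55 and 8.58 against 8.91 and 8.995 (0.38, adjusted p = 0.083, limma). None of the 9 nuclear regulators of the chain passed the test (limma), and their median was 0.05. An unadjusted p under 0.05 was reached by 2, against 20.4% of all genes (limma). *Nrf1*, *Gabpa* and *Yy1*, whose motifs were counted above, had values of 0.05, 0.02 and 0.04, and *Pprc1*, a coactivator related to PGC-1, of -0.46 (adjusted p = 0.065, limma). The 13 mitochondrially encoded subunits are not analysed here.

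**Figure D4:**
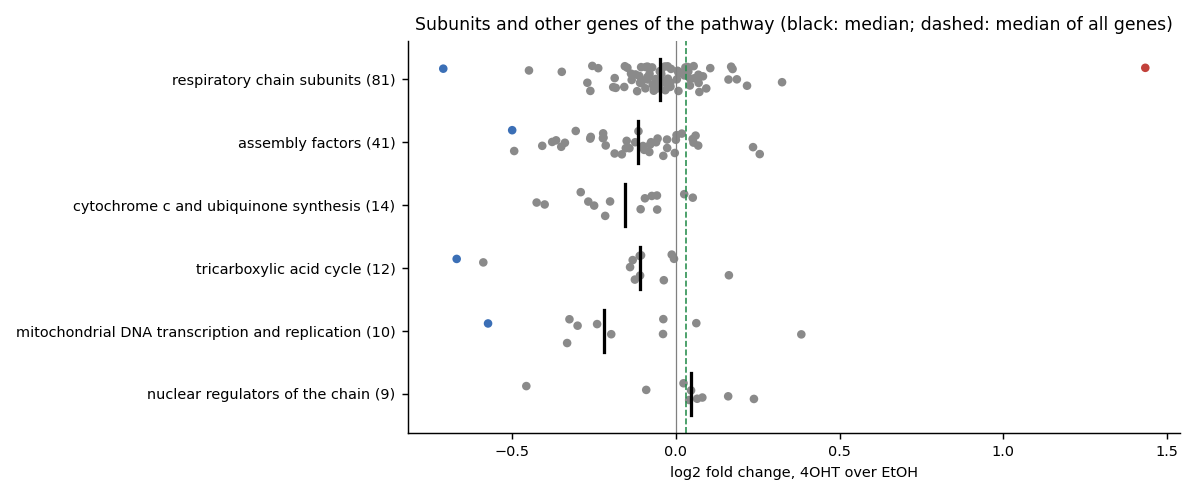
Log2 fold change of 4OHT over EtOH for the subunit genes and the genes of 5 lists of the pathway (number measured in brackets); points are genes, red and blue points passed the test as higher and lower, black bars are medians and the dashed line is the median of all genes (0.03). The medians run from -0.22 (mitochondrial DNA transcription and replication) to 0.05 (nuclear regulators), with -0.05 for the subunits.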

How the data were processed

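Biotin-labelled cDNA was made from 150 ng of total RNA per sample and hybridised to Affymetrix Mouse Gene ST 1.0 arrays. The authors deposited log2 values that the labels credit to RMA in Affymetrix Expression Console 1.1. RMA corrects the background, equalises the distributions of the arrays and summarises probes. No genome build was named for the array values in the sources used here. The values ran from 3.09 to 14.24, and the number of arrays, 2 per treatment, limits the precision. The array annotation paired 21789 of the 35556 probe sets with 1 gene symbol, 1621 with several and 12146 with none.

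The 4OHT arrays were compared with the EtOH arrays by lmFit and eBayes of limma 3.58.1 in R 4.3.3, two-sided, with Benjamini-Hochberg adjustment over all 35556 probe sets, with no filter on dim probe sets. A gene was called at an adjusted p under 0.05. The code was tested on simulated data. The members and the lists were chosen with earlier results of these data known. Named were the called members, the largest changes and the brightest and dimmest probe sets of each complex, the isoform families, the core subunits and the called genes of the lists. Others were named after their values were seen, as examples. All 81 symbols are those of RefSeq (GRCm38.p6), from which the promoter windows and the order of the neighbouring genes came. Gene sequences of *Cox6a2* and *Cox4i2* are not used here. Alternatives were a replicate block, other scalings, a minimum mean of 6, a fit on probe sets with 1 symbol, an intensity trend, averaging the probe sets of a gene, current symbols and leaving out each array.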

Additional observations from a re-analysis of the deposited data

How the results depend on the processing

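The count of 2 called members was 2 with equal array medians, with a minimum mean of 6 (80 members tested), with the probe sets of a gene averaged and with current symbols, and 3 with an intensity trend, which added *Uqcrb* (adjusted p = 0.036, limma). It was 1 after quantile normalization was repeated, where *Cox4i2* was lost, and 5 in the fit on probe sets with 1 symbol, which added *Cox6b2* (adjusted p = 0.0085), *Uqcrb* (0.015) and *Cox8c* (0.031) and called 13.7% of all genes (limma). That fit gave the shared spread 8.44 prior degrees of freedom, against 2.66 over all probe sets, and adjusted over fewer probe sets. With an array left out it ran from 0 to 1, with *Cox6a2* kept without 4OHT replicate 1, and an unadjusted p under 0.05 was reached by 5 to 11 members. With the replicate block it was 0, with 5 members at an unadjusted p under 0.05 (limma). The sample numbers are not known to pair the samples: the deviations of samples with the same number correlated at r = -0.13. The crossed pairing, added after the data were seen, called 0 members, with 7 at an unadjusted p under 0.05, and 535 of the 19938 genes (limma). The median log2 fold change of the members ran from -0.10 to 0.01 over the arrays left out and was -0.01 after quantile normalization. The corresponding median over all genes ran from 0.01 to 0.04 and was 0.02 after quantile normalization. The causes of these differences were not tested. Of the named members' values, none reversed, 4 passed the threshold under a setting where they had not, 10 no longer did, and 480 kept their side of it, of which 30 changed sign within 1 SE of 0. With 2 arrays per treatment, small changes could go undetected in dim and in bright probe sets. *Uqcrb*, with an EtOH mean of 12.40, did not pass the main fit at a log2 fold change of -0.35.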
